A study of Arabidopsis thaliana with 4 samples.

Results

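CRK5 to CRK8 and CRK10 to CRK15 are 10 cysteine-rich receptor-like kinase genes of Arabidopsis thaliana that lie in a run in locus order, from AT4G23130 to AT4G23230, in which CRK9 also sits. They were picked by locus code out of 32627 genes on the array, and all 10 had a value, carried by 14 transcript models. The choice was made with values of these arrays in view, and the list itself states no threshold and no contrast. Levels and differences of these genes are therefore given as a description, and nothing is supported with them.

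Transcripts were measured in total RNA of whole Col-0 seedlings on 4 one-colour arrays, 2 of the wild type and 2 of a late-flowering line that carries 35S::JMJ30-HA. In that line the 35S promoter, which is active in most plant tissues, drives the histone demethylase gene JMJ30 with an HA tag. The labels do not say how many independent insertions stand behind the line. All seedlings grew on soil without treatment at 22 °C in long days (16 hours light, 8 hours dark), and were taken 13 days after germination. The 2 arrays of a genotype are biological replicates per the labels, and the design text speaks of sets that hold both genotypes, so arrays with the same replicate number are set side by side below. What the seedlings of a number shared is not stated, and p-values cover only the spread between these arrays.

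Cysteine-rich receptor-like kinases sit in the plasma membrane. Outside the cell they carry a pair of DUF26 domains with conserved cysteines, and inside a serine/threonine kinase domain. The family is large in Arabidopsis, much of it lies in tandem arrays on chromosome 4, and many members are known to be induced by salicylic acid, by pathogens and by reactive oxygen species made in the cell wall space.

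The values are normalized intensities on a linear scale. Array medians lay between 25.6 and 26.6. Gene means formed a dim peak near 4.31 and a bright peak near 198, and the lowest point between these peaks, the valley, was at 13.1. Therefore a value under 13.1 is called near background here, which describes the level and is no detection call. Leaf mesophyll markers were present, with 5 of 5 above the valley on every array and summed intensities from 4797 to 4899. Of 5 root markers, PIP2;2 and RCI3 had a mean above it, while 0 of 3 seed markers and 0 of 3 flower markers reached it on any array. JMJ30 (AT3G20810), the gene under the 35S promoter, read 705 and 567 on the wild-type arrays, against 1054 and 721 on the arrays of the transgenic line. JMJ30 showed no overlap between genotypes, as did 26.0% of all genes, with 705 and 721 the nearest values. Its log2 difference was 0.46 ± 0.27 (SE), not called by limma (adjusted p = 1.0, and 0.828 with the replicate block).

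Most of the receptor kinase genes separated by replicate number, and none separated by genotype. With 2 arrays per genotype, a gene that separates by number cannot also separate by genotype. In 8 of the 10 genes both arrays of replicate 1 read higher than both arrays of replicate 2, as in 23.2% of all genes on the array. Taken by sign alone, 8 of 10 were lower in replicate 2 in both genotypes (30.1% of all genes) and 0 of 10 higher in both (32.3% of all genes). CRK7 and CRK10 made up the remaining 2. The median log2 difference of the 10 genes, replicate 2 minus replicate 1, was -1.38 in the wild type and -1.10 in JMJ30-HA seedlings, where the median of all genes was 0.0027 and 0.016. Averaged over the genotypes it was -1.16. Since 8 of the 10 genes were near background on both replicate 2 arrays, these sizes are uncertain, and the averaged median was -0.55 with values under the valley taken at the valley and -0.62 with log2(value + 16). As whole seedlings were used, fewer cells with a transcript and less transcript per cell cannot be told apart in any of these values. The numbers 1 and 2 were not part of the study's contrast, and no test is given between them.

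**Figure D1:**
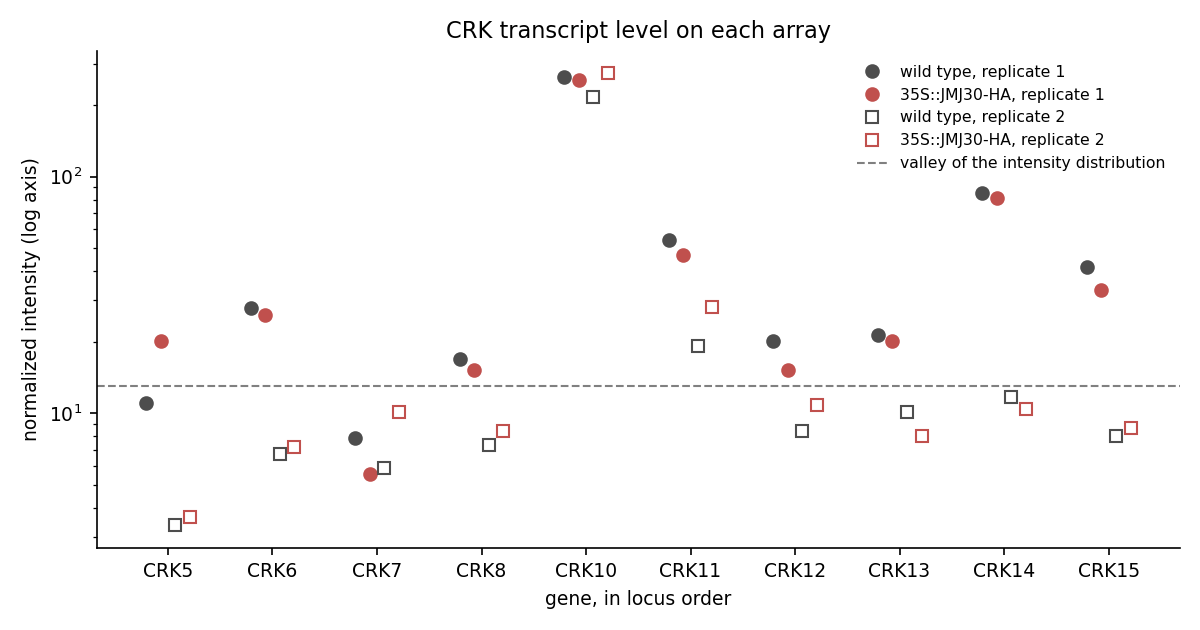
Normalized intensity (log axis) of each receptor kinase gene on the 4 arrays, with filled circles for replicate 1, open squares for replicate 2, grey for the wild type, red for 35S::JMJ30-HA, and a dashed line at the valley of 13.1. Circles lie above squares for all genes except CRK7 and CRK10, and grey and red symbols of a number lie close together for CRK6, CRK14 and CRK15.

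CRK14 (AT4G23220) showed the widest separation. It read 85.1 in the wild type and 81.2 in JMJ30-HA seedlings in replicate 1 against 11.7 and 10.4 in replicate 2. Both replicate 2 arrays were near background, so the size of the difference is uncertain. With values under the valley taken at the valley, replicate 2 was 6.505-fold lower in the wild type and 6.20-fold lower in JMJ30-HA seedlings. The valley is no detection limit, so these folds depend on that choice. Averaged over the genotypes, the log2 difference was -1.87 with log2(value + 16). The genotype means were 48.4 ± 51.9 (SD, n = 2) and 45.8 ± 50.1 (SD, n = 2), so the spread within a genotype was that between the numbers, and the genotypes overlapped.

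CRK15 (AT4G23230), next to CRK14 in locus order, read 41.4 and 33.3 in replicate 1 against 8.04 and 8.68 in replicate 2, wild type first. With the same floor it was 3.16-fold lower in the wild type and 2.55-fold lower in JMJ30-HA seedlings. Its averaged log2 difference was -1.13 with log2(value + 16). CRK14 and CRK15 were the 2 genes of the group that stayed past 2-fold in both genotypes with this floor, as did 0.524% of all genes.

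CRK6 (AT4G23140), which is known to act with CRK7 in responses to oxidative stress outside the cell, read 27.9 and 26.1 in replicate 1 against 6.75 and 7.22 in replicate 2. Its second transcript model read 19.8 and 26.1 against 7.05 and 3.37, the same order. With the floor the gene was 2.13-fold lower in the wild type and 1.996-fold lower in JMJ30-HA seedlings. Its averaged log2 difference was -0.90 with log2(value + 16).

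CRK5 (AT4G23130), whose overexpression is known to raise resistance to Pseudomonas syringae, was near background on 3 of 4 arrays. It read 11.02 in the wild type and 20.3 in JMJ30-HA seedlings in replicate 1 against 3.37 and 3.66 in replicate 2. Its second model stayed near background throughout, at 10.3 and 9.67 against 5.004 and 4.86. Both models ranked the replicate numbers alike, but only the first had a value above the valley.

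CRK13 (AT4G23210), whose overexpression is known to cause cell death and to raise salicylic acid, read 21.5 and 20.3 in replicate 1 against 10.1 and 8.03 in replicate 2. These are values of model 3, the one with the highest mean. Model 1 read 7.86 and 5.65 against 5.84 and 4.396, and model 2 read 11.4 and 5.76 against 6.64 and 8.02. Models 1 and 2 were near background on all arrays, and model 2 was higher in replicate 2 in JMJ30-HA seedlings, so the models of this gene disagree there.

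CRK11 (AT4G23190), also known as RLK3 and reported to be induced by oxidative stress and pathogens, lay above the valley on all 4 arrays. Its intensities were 53.8 and 46.8 in replicate 1 against 19.2 and 28.3 in replicate 2. The log2 difference between the numbers was -1.49 in the wild type and -0.73 in JMJ30-HA seedlings, past 2-fold in the wild type alone, and the difference between these values was not tested. CRK8 (AT4G23160) and CRK12 (AT4G23200) were above the valley in replicate 1 and under it in replicate 2. CRK8 read 17.02 and 15.3 against 7.36 and 8.41, and CRK12 read 20.2 and 15.3 against 8.40 and 10.9.

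CRK10 (AT4G23180), a gene known for a gain-of-function mutant with collapsed xylem vessels, read 263 and 255 in replicate 1 against 218 and 273 in replicate 2. Its values overlapped between the numbers and between the genotypes, with means of 240 ± 32.0 (SD, n = 2) for wild-type and 264 ± 13.0 (SD, n = 2) for JMJ30-HA seedlings. CRK7 (AT4G23150) was near background on every array, at 7.87 and 5.57 in replicate 1 against 5.90 and 10.1 in replicate 2. CRK10 is thus the gene of the group that was above the valley on all arrays without a separation by number, whereas for CRK7 the level leaves little to read.

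Read at face value, 5 of the 10 genes (CRK5, CRK6, CRK13, CRK14 and CRK15) were at least 2-fold lower in replicate 2 in both genotypes, as were 0.772% of all genes. All 5 were near background on both replicate 2 arrays. With values under the valley taken at the valley the count was 2 (CRK14 and CRK15), as for 0.524% of all genes, and with log2(value + 16) it was 1. Of the 6 genes of the group whose mean lay above the valley, which drops CRK5, CRK7, CRK8 and CRK12, 4 were past that fold at face value, and 1.05% of all genes above the valley. These 4 passed the filter through replicate 1 alone, and with the floor CRK6 and CRK13 were no longer past 2-fold. These shares describe genes that were chosen with the values known and are read no further. Over the 10 genes the differences in the wild type and in JMJ30-HA seedlings, which come from separate arrays, had a Pearson correlation of 0.89 as a description (n = 10 neighbouring genes on the same arrays).

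The study's own comparison is between the genotypes. By limma over all genes, 0 of the 10 receptor kinase genes were called at an adjusted p below 0.05, as were 0.0% of all genes, and 0 of the 10 had an unadjusted p below that level, against 2.99% of all genes. With a block for the replicate number the counts were again 0 of 10 adjusted (0.0% of all genes) and 0 of 10 unadjusted (6.01% of all genes). In none of the 10 did the genotypes separate without overlap, which 26.0% of all genes did. For the 8 genes that separated by replicate number this outcome was fixed, so it says nothing about genotype in them. The log2 differences, transgenic minus wild type, ran from -0.21 for CRK13 to 0.50 for CRK5, with a median of 0.011 beside -0.0039 for all genes. Of the 10, 6 were higher and 4 lower in JMJ30-HA seedlings.

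For the genes that separated by replicate number, precision differed between the fits, because the first leaves the difference between the numbers in the error. The moderated standard errors of the 10 genes were 0.20 to 1.298 with genotype alone and 0.17 to 0.34 with the block. Those of CRK7 and CRK10 hardly differed, at 0.35 and 0.20 with genotype alone and 0.34 and 0.19 with the block. For CRK14 the 95% interval before adjustment ran from -3.43 to 3.19 with genotype alone and from -0.56 to 0.31 with the block. A missing call in the first fit therefore leaves large differences possible for such genes, and the blocked interval is the narrower statement, on the reading that equal numbers belong together.

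**Figure D2:**
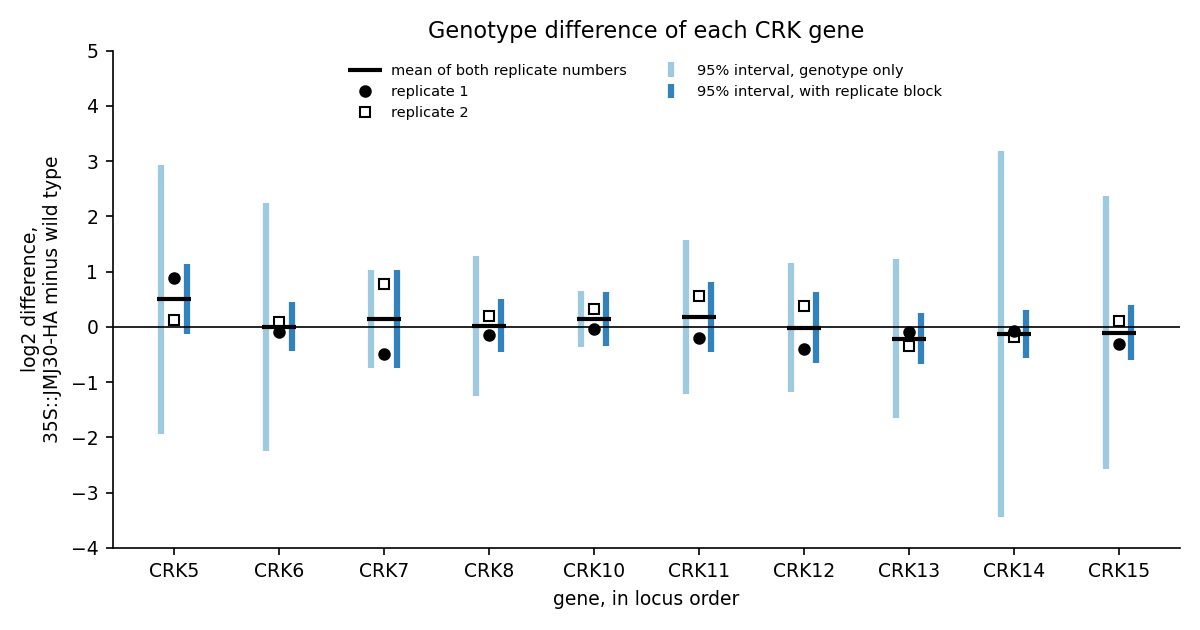
Log2 difference, 35S::JMJ30-HA minus wild type, of each receptor kinase gene. Bars mark the mean over both numbers, filled circles replicate 1, open squares replicate 2, pale blue the 95% interval with genotype alone and dark blue with the replicate block; all intervals span 0, and the pale one of CRK14 reaches from -3.43 to 3.19.

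Taken within each number, the genotype difference had opposite signs in replicate 1 and replicate 2 for 7 of the 10 genes. Such disagreement was common on the array, where only 8056 of 32627 genes were higher in both numbers and 8323 lower in both. CRK5 was higher in JMJ30-HA seedlings in both, by 0.88 and 0.12 on the log2 scale, with all but 1 of its values near background. The second model of CRK5, near background throughout, was lower in JMJ30-HA seedlings in both. It read 9.67 against 10.3 in the wild type in replicate 1, and 4.86 against 5.004 in replicate 2. CRK13 was lower in both, at -0.085 and -0.34, and so was CRK14, at -0.068 and -0.18. Both genes were near background in replicate 2. Model 2 of CRK13, near background on all arrays, was higher in JMJ30-HA seedlings in replicate 2, at 8.02 against 6.64. CRK7 had the widest disagreement, at -0.50 in replicate 1 and 0.77 in replicate 2, all of it near background. CRK11 read -0.20 and 0.56, and CRK12 read -0.40 and 0.37. The median of the group was -0.12 in replicate 1 and 0.16 in replicate 2.

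The family continues past the group in locus order, which allows a look at its edges. CRK9 (AT4G23170, listed as EP1 in RefSeq) lies between CRK8 and CRK10 and read 90.6 and 103 in replicate 1 against 56.8 and 60.3 in replicate 2, wild type first. It was lower in replicate 2 in both genotypes, at log2 differences of -0.67 and -0.77. CRK16 (AT4G23240), the next gene after CRK15, read 60.6 and 62.4 against 57.4 and 45.8, with differences of -0.08 and -0.45. The separation seen for CRK14 and CRK15 was thus small at the gene that follows them, and no test was made of that step.

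Of the 10 family genes beside or inside the run, CRK9 and CRK16 to CRK24, 3 were lower in replicate 2 in both genotypes, 2 were higher and 5 differed in sign. Among all genes 30.1% were lower in both and 32.3% higher. Their median difference was -0.08, and 0 of 10 were past 2-fold lower in both genotypes (0.772% of all genes). CRK18 read 28.2 and 35.5 in replicate 1 against 37.9 and 50.2 in replicate 2, the opposite order to CRK14. CRK21 read 65.9 and 48.4 against 74.04 and 92.5. CRK20, which was near background on all arrays, also read lower in replicate 2 in both genotypes. Loci of other kinds within the run, the noncoding RNA AT4G23205 and the pseudogene AT4G23215, were near background on all arrays.

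**Figure D3:**
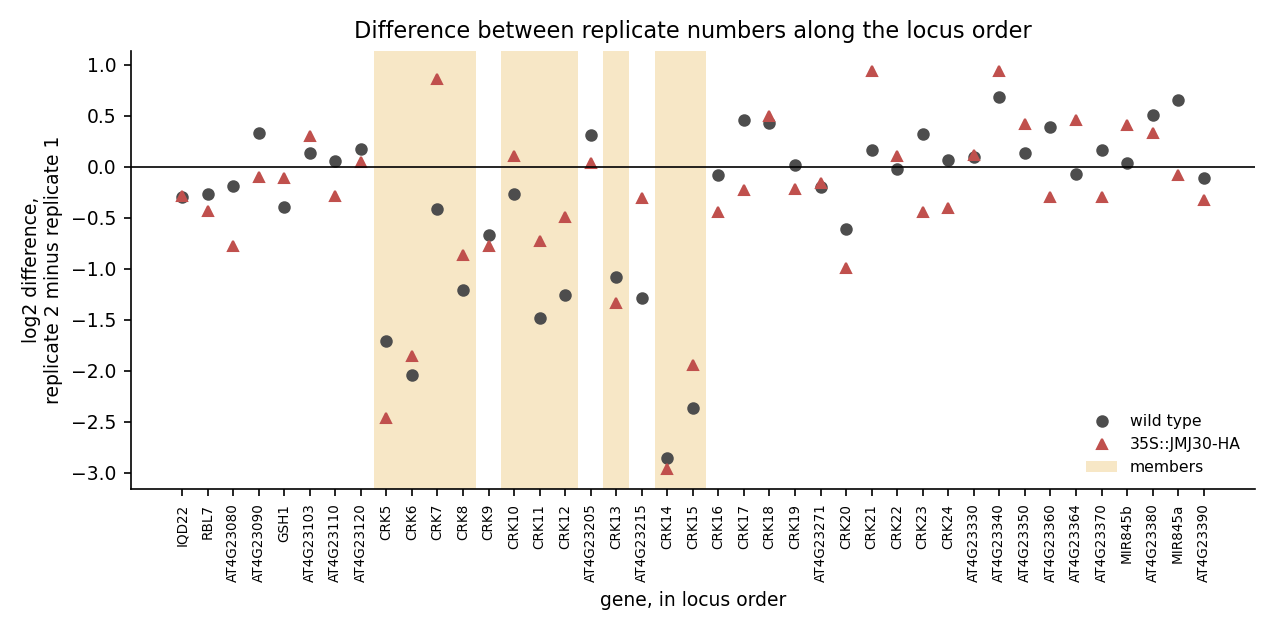
Log2 difference, replicate 2 minus replicate 1, of each gene on the array around the receptor kinase run, in locus order, with grey circles for the wild type, red triangles for 35S::JMJ30-HA and shading behind the 10 genes of the group. The lowest points belong to CRK14 at -2.86 and -2.97, from replicate 2 values near background. With values under the valley taken at the valley these are 6.505-fold and 6.20-fold. CRK16, next to CRK15, lies at -0.08 and -0.45.

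Members of the family elsewhere in the genome were read for comparison. Of 22 such genes 10 were lower in replicate 2 in both genotypes (30.1% of all genes) and 4 were higher (32.3% of all genes). Their median difference was -0.31, or 0 with values under the valley taken at the valley, and 10 of the 22 had a mean above it. At face value 1 was past 2-fold lower in both genotypes (0.772% of all genes). That gene was ARCK1 (CRK45), known as a negative regulator of abscisic acid responses, at 28.4 and 28.6 in replicate 1 against 7.66 and 6.74, both near background, in replicate 2. CRK34 read 44.4 and 37.5 against 18.05 and 24.2. CRK28, known to act with the coreceptor BAK1 in immunity, read 34.8 and 34.5 against 22.6 and 17.9. CRK2, which regulates the NADPH oxidase RBOHD, read 264 and 253 against 139 and 157. All 4 were lower in replicate 2 in both genotypes. The difference between these lists and the group was not tested, because the group was chosen with the values known.

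Genes of the salicylic acid pathway were read as well, since the hormone is known to induce several receptor kinases of this family. Like the group, these lists were chosen with earlier results of these data known, so their counts are description only. Of 13 genes of salicylic acid synthesis and signalling, 9 were lower in replicate 2 in both genotypes (30.1% of all genes) and 0 higher (32.3% of all genes). Their median log2 difference was -0.42. Of the 9, FMO1 was near background on all arrays and PBS3 on all but 1. SARD1, a transcription factor that activates the synthesis gene ICS1, read 130.2 and 90.9 in replicate 1 against 15.4 and 15.9 in replicate 2. EDS5, the transporter that exports the precursor from the chloroplast, read 135.8 and 154 against 46.2 and 49.1. PAD4, a partner of EDS1 in immune signalling, read 59.9 and 49.0 against 24.2 and 27.5. SAG101, another EDS1 partner, read 187.7 and 187.7 against 135 and 127. These 4 were named for the size of their difference between the numbers, so their separation without overlap adds nothing. In the whole list 9 of 13 had both replicate 1 arrays above both replicate 2 arrays, as did 23.2% of all genes. ICS1 itself had opposite signs, at -0.18 in the wild type and 0.34 in JMJ30-HA seedlings.

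Among 6 output genes of salicylic acid 4 were lower in replicate 2 in both genotypes (30.1% of all genes) and 0 higher (32.3% of all genes). Their median was -1.31, or -0.88 with values under the valley taken at the valley. PCC1, a gene under pathogen and circadian control, read 555 and 462 in replicate 1 against 12.1 and 15.1 in replicate 2. GRX480, a glutaredoxin that binds TGA factors, read 115 and 106 against 13.1 and 14.6, and PR5, a thaumatin-like protein gene, read 110 and 135 against 33.6 and 38.2. PR1, the classical marker, PR2 and NIMIN1 were near background on all 4 arrays, so a difference in them was not measurable here, although PR2, at 7.84 and 8.80 against 4.09 and 5.12, is counted among the 4. What part the state of this pathway had in the receptor kinase values was not tested.

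WRKY factors of defence, which bind W-box elements in promoters, split evenly, with 5 of 11 lower and 5 higher in replicate 2 in both genotypes. The shares of all genes were 30.1% and 32.3%. WRKY54 read 61.9 and 47.5 in replicate 1 against 21.1 and 13.0 in replicate 2. WRKY70, its close relative, read 114 and 120 against 72.8 and 81.4, and WRKY18 read 106 and 78.4 against 60.8 and 58.1. WRKY33, which controls camalexin synthesis, went the other way, at 226 and 248 against 354 and 455. The list as a whole had a median difference of 0.018 and so no common direction.

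Pattern receptors and their partners had a median difference of -0.0099, with 2 of 7 lower (30.1% of all genes) and 1 higher (32.3%) in both genotypes. SOBIR1, a coreceptor of receptor-like proteins, read 340 and 378 in replicate 1 against 214 and 257 in replicate 2, and CERK1, the chitin receptor kinase, read 524 and 470 against 418 and 387. EFR, the receptor for bacterial EF-Tu, read higher in replicate 2, at 14.2 and 12.3 against 18.2 and 16.6. BAK1, the coreceptor, overlapped, at 323 and 337 against 254 and 344.

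Genes of reactive oxygen production and response were lower in both genotypes for 2 of 6 (30.1% of all genes) and higher for 2 of 6 (32.3%). Their median was -0.04. RBOHD, the NADPH oxidase of immune bursts, read 332 and 347 in replicate 1 against 204 and 269 in replicate 2. AOX1A, the alternative oxidase of mitochondria, read 62.9 and 43.6 against 93.6 and 83.0, and RBOHF overlapped at 71.7 and 85.0 against 85.3 and 84.1. Leaf mesophyll markers had a median difference of 0.012 and summed intensities of 4797 and 4899 in replicate 1 against 4827 and 4880 in replicate 2. LHCB2.1, a light-harvesting protein gene, stood apart from the other 4 in the size of its difference. It read 43.2 and 36.6 in replicate 1 against 64.7 and 68.8 in replicate 2, without overlap. The others, the photosynthesis genes CAB1, GAPB, RBCS1A and PSAD-2, had differences from -0.06 to 0.021. Of these, CAB1 was also without overlap, in the opposite order, at 1260 and 1306 against 1235 and 1232. Root markers had a median difference of 0.053, with 2 of 5 lower in replicate 2 in both genotypes (30.1% of all genes) and 1 higher (32.3%). Their sum, 528 and 650 against 650 and 710, was mostly the aquaporin gene PIP2;2, the 1 that was higher, at 487 and 609.5 against 614 and 660. RCI3, a peroxidase gene, overlapped at 19.1 and 11.7 against 18.4 and 26.1. Of the 2 lower root markers, NRT2.1 was near background on all arrays and RHS10 on all but 1. What part the tissue makeup had in the receptor kinase values was not tested. No gene of these lists was called between the genotypes by limma at an adjusted p below 0.05, with or without the block.

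**Figure D4:**
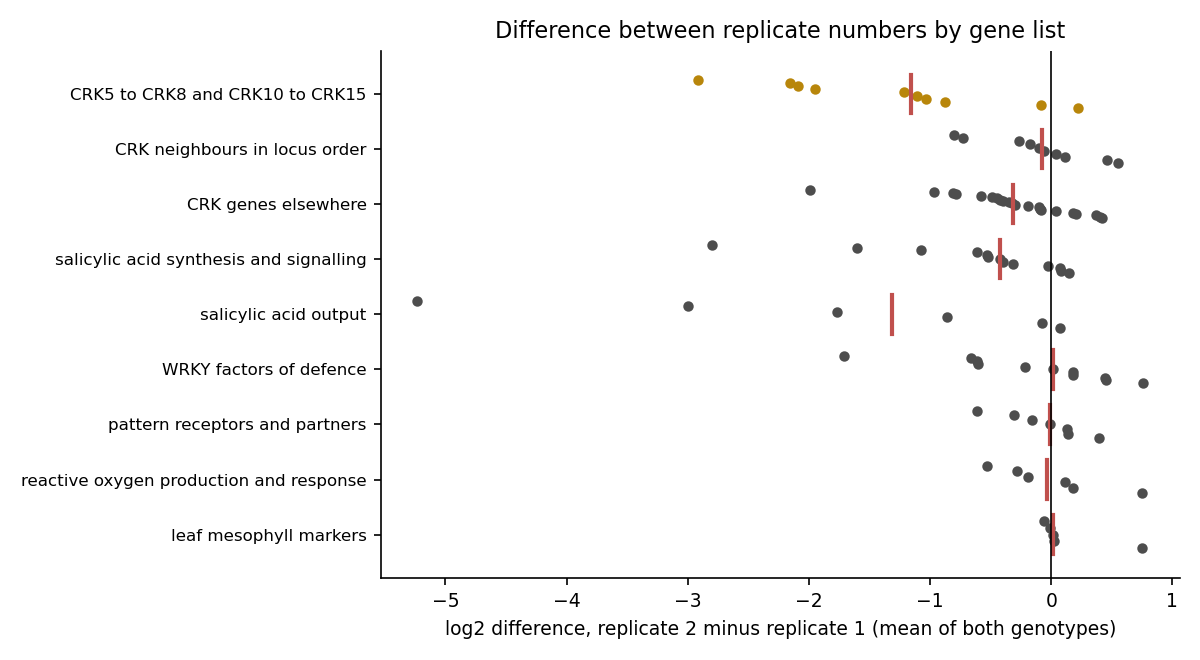
Log2 difference, replicate 2 minus replicate 1, averaged over both genotypes, for each gene (points) of 9 lists, with a red bar at the median of the list. The receptor kinase group (ochre) and the salicylic acid output genes have medians of -1.16 and -1.31, or -0.55 and -0.88 with values under the valley taken at the valley, and leaf mesophyll markers have one of 0.012.

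The genes most like the group were found by the root mean square distance, over the 4 arrays, between a gene's log2 deviations from its own mean and the mean deviations of the 10 receptor kinase genes, among genes with a mean above the valley. The nearest was ATBFRUCT1 (AT3G13790), a cell wall invertase gene, at a distance of 0.026, with 452 and 419 in replicate 1 against 157 and 181 in replicate 2. MYB70 followed at 0.031, with 205 and 188 against 70.04 and 84.9, and PYL5, an abscisic acid receptor gene, at 0.0503, with 42.04 and 35.6 against 14.5 and 16.5. The next 3 were AT2G39210 at 0.052, PGL1 at 0.061 and AT1G73210 at 0.063. Within the group the distances from its own mean profile ran from 0.14 for CRK8 to 0.81 for CRK7 and CRK14, and the 6 genes named lay nearer because they were picked for it among all genes above the valley.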

How the data were processed

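Total RNA of 4 seedling samples was hybridised to one-colour Cy3 NimbleGen arrays, per the labels. The deposited intensity values, 1 per transcript model (37118 models), were made by the authors with RMA, per the submitters' processing notes. The sources used here do not give a version, settings or a genome build. Values reach 4400, with none at or below 0, and were read as linear, then put on the log2 scale without a pseudocount. The data used here hold no background measurement, and the number of arrays limits the precision. Probe sequences were not used here, so signal shared between these related genes was not tested, and no gene sequences are shown.

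A gene with several models (3602 of 32627) was represented by its model with the highest mean. The valley came from a kernel density of mean log2 values (bandwidth 0.2). Symbols came from the RefSeq gene table of TAIR10.1, which held 31993 locus codes (98.1%). Of 102 list entries 100 had the given name there, and the others carry its names, GRX480 and RCI3. The genotype test used the R (4.3.3) package limma 3.58.1, with lmFit and eBayes on log2 values, two-sided, with Benjamini-Hochberg adjustment over all genes, and was tested on simulated data. Plots used matplotlib 3.10.9.

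Same-numbered arrays were treated as pairs because the series' design text names sets with both genotypes, which is open to another reading. Deviations from the genotype means correlated at 0.42 over all genes, and at 0.68 over 18039 genes above the valley. The members and lists were chosen with earlier results of these data known. All 10 members were to be named, with up to 4 genes above the valley per list by size of the difference between numbers, always CRK9 and CRK16, the 6 genes nearest in profile, and JMJ30. CRK20, ICS1, FMO1, PBS3, PR1, PR2, NIMIN1, NRT2.1, RHS10, PSAD-2, AT4G23205 and AT4G23215 were added after their values were seen.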

Additional observations from a re-analysis of the deposited data

Results flagged for a closer look

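CRK7 and CRK10 moved in opposite directions between the replicate numbers in the 2 genotypes, as did 12283 of all 32627 genes. These differences were not tested, as each rests on 1 array per genotype and number. As replicate 2 minus replicate 1 on the log2 scale, CRK7 read -0.42 in wild-type and 0.86 in JMJ30-HA seedlings, with all 4 values near background. CRK10 read -0.27 and 0.10, with all 4 values above the valley.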

How the results depend on the processing

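The count of genes called between genotypes was 0 under all alternatives except trend and robust settings, where it was 1, and 0 of the receptor kinase genes were called under any. Without each array in turn both counts were 0 to 0, and the replicate block gave 0 and changed no call. The median genotype difference of 0.011 ran from -0.0499 (6 genes above the valley) to 0.038 (quantile normalization), and from -0.62 to 0.77 without single arrays, where 1 replicate number holds a single genotype and the value carries the difference between numbers. The median difference between the replicate numbers, -1.16, was -0.62 with log2(value + 16) and -0.55 with values under the valley taken at the valley, an alternative chosen after seeing the data. Both compress low values by construction. It was -1.38 to -1.10 without single arrays, each of which leaves 1 genotype. The count of genes at least 2-fold lower in both genotypes was 5, 4 with the mean of models, 1 with log2(value + 16) and 2 with the floor. Of the group 8 read under the valley on both replicate 2 arrays, which limits the size of every difference given for them.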
